A study of Homo sapiens with 4 samples.

Results

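The nuclear pore and nuclear transport genes were taken as the protein-coding rows whose names begin with NUP, IPO, XPO or TNPO and a digit, with XPOT, or with KPNA or KPNB. The rule found 45 of the 26733 deposited genes, namely 22 nucleoporins and 23 transport receptors. All 45 passed the filter on low counts. They were followed in Jurkat, an established human leukaemia line of T-cell (T-ALL) origin. Cells had been exposed for 24 h to GNE987, at 25 nmol in the labels with no volume, or left without treatment, and each group gave 2 libraries of polyadenylated RNA. GNE987 is a chimeric molecule that brings BET bromodomain proteins to the VHL ubiquitin ligase for degradation, and no vehicle is named for the untreated cells. Nothing in the labels shows that replicates were separate cultures, so the tests speak only of the spread among these libraries, and that spread may be technical.

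The nuclear pore complex is a ring of nucleoporins set in the nuclear envelope. Scaffold nucleoporins build its outer and inner rings, and nucleoporins rich in phenylalanine-glycine (FG) repeats fill the channel and bind transport receptors. Importin alpha proteins are adaptors that link a nuclear localization signal to importin beta, relatives of importin beta carry other cargo inward or outward, and the GTPase Ran sets the direction. Rapidly dividing cells build new pores in interphase and at the end of mitosis, and exportin 1 is a drug target in blood cancers.

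Total counts were 17024157 and 16041022 in the GNE987 libraries and 18938465 and 18441248 in the untreated ones, and the 45 genes took 0.368% and 0.349% of them with GNE987 and 0.496% and 0.451% without. Counts differed less within the GNE987 pair (chi-square over degrees of freedom 4.76) than within the untreated pair (36.0), and untreated replicate 2 stood apart from untreated replicate 1 on the side of the treated libraries. In all 37 of the 45 genes that passed the test below, untreated replicate 2 was displaced from untreated replicate 1 toward GNE987, as in 91.2% of all genes that passed; both untreated libraries entered the calls, so this is a description. The 10 T-cell markers summed to 2320 and 2440 CPM (library-scaled counts with TMM factors) with GNE987 and 3370 and 3250 CPM without. Of the 10, 6 fell and 1 rose, where 37.2% of all genes tested fell and 34.4% rose. The kinase LCK had 60.1 and 62.1 CPM with GNE987 and 950.6 and 782.7 CPM without (log2 fold change -3.83), while CD3E, a chain of the T-cell receptor complex, had 716.5 and 822.5 CPM with GNE987 and 506.8 and 639.3 CPM without and did not pass. CD2, the lowest of the 10, had 0.263 and 0.58 CPM with GNE987 and 7.9 and 6.22 CPM without (-4.07). Among 5 myeloid markers found, 3 rose (CD14, CSF1R and LYZ). The 5 summed to 142 and 147 CPM with GNE987, to 0.539 CPM in untreated replicate 1 and to 29.7 CPM in untreated replicate 2. The most abundant of them, MPO and ITGAM, did not pass. MPO had 72.6 and 77.3 CPM with GNE987 and 0.0898 and 15.5 CPM without, and ITGAM 43.1 and 40.4 against 0.135 and 9.23 CPM. Summed markers of B cells were 97.8 and 107 against 41.5 and 51.6 CPM, almost all of it CD79A. Those of erythroid cells or megakaryocytes were 8.34 and 8.04 against 0.539 and 0.889 CPM, of fibroblasts 8.86 and 8.91 against 1.26 and 1.93 CPM, and of epithelium 0.328 and 0.725 against 0.404 and 0.247 CPM; KRT18, of epithelium, and COL3A1, of fibroblasts, had 0 counts in both GNE987 libraries. The part of these markers and of untreated replicate 2 in the results below was not tested.

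Most nuclear pore and transport genes were lower after GNE987. Of 45 genes 28 fell and 9 rose at an adjusted p under 0.05 (edgeR quasi-likelihood test, Benjamini-Hochberg over all 15910 genes tested), where 71.6% of all genes tested were called, 37.2% lower and 34.4% higher. The median log2 fold change of the 45 was -0.99, against -0.03 for all genes tested and -0.22 for the protein-coding ones. Falls were found in every role: 7 of 11 import genes of the importin beta family, all 5 inner ring genes, 5 of 6 exportins, 4 of 6 outer ring genes, both genes of the cytoplasmic side, both of the basket, and 1 each of the channel, membrane ring and importin alpha genes. The rises were those of 4 importin alpha genes, IPO13, IPO7, NUP58, NUP98 and NUP210L. Among the 22 nucleoporins 15 fell and 3 rose, with a median of -0.99, and among the 23 receptors 13 fell and 6 rose, with a median of -1.004. The CPM of the groups did not overlap for 43 of the 45 genes, as for 91.1% of all genes tested. Without untreated replicate 2 there were 29 falls and 12 rises, where 40.1% of all genes fell and 41.1% rose. Without GNE987 replicate 1 there were 21 falls and 6 rises (25.2% and 13% of all genes), and without GNE987 replicate 2 there were 22 and 8 (25.6% and 13.5%). When libraries were scaled by total count only, the median over all genes was -0.41 and the 45 had 31 falls and 9 rises, where 45% of all genes fell and 25.8% rose. In bulk RNA, fewer cells of a type and less RNA per cell cannot be told apart.

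**Figure D1:**
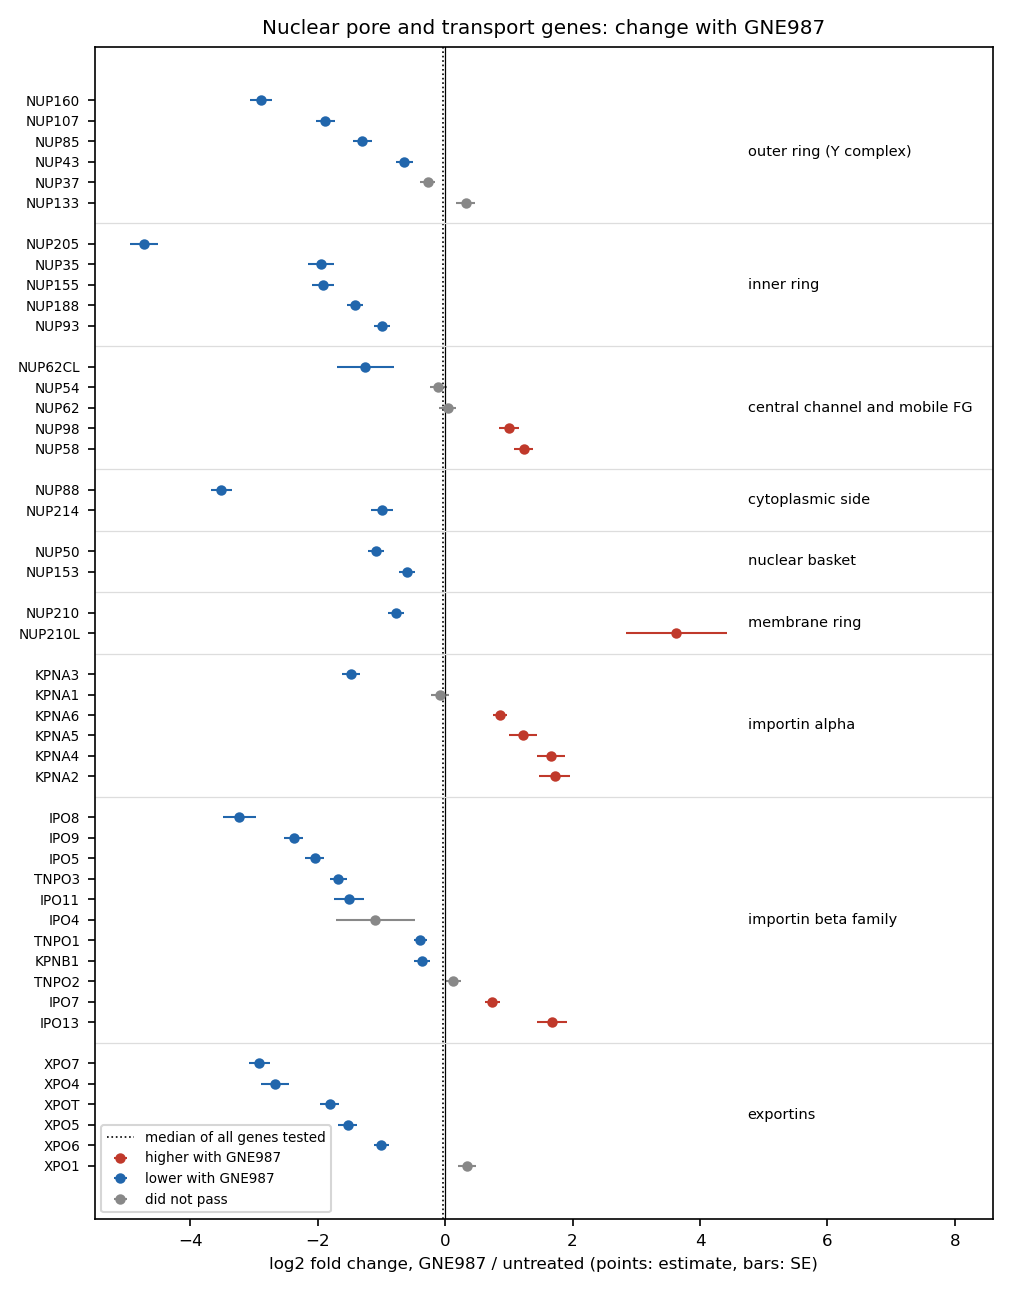
Log2 fold change (GNE987 over untreated, with SE) of the 45 genes, in blocks by role; red and blue points passed the test. NUP205 is farthest to the left at -4.72 and NUP210L farthest to the right at 3.63, and the block of exportins lies left of 0 except XPO1.

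The outer ring, or Y complex, is the scaffold that faces the cytoplasm and the nucleoplasm and recruits other nucleoporins when pores assemble. Of the 6 genes under the rule placed here 4 fell and 0 rose. NUP98, whose precursor also gives the outer ring subunit NUP96, is counted with the channel genes below and rose. NUP160 had 11.0 and 8.99 CPM with GNE987 and 81.9 and 66.6 CPM without, a log2 fold change of -2.89 ± 0.18 (SE; adjusted p = 0.000315). NUP107 had 22.1 and 24.6 CPM with GNE987 and 94.4 and 77.2 CPM without (-1.88 ± 0.15, adjusted p = 0.0005). In both genes each treated library lay far under the lower untreated one. NUP85 was at -1.30 and NUP43, a beta-propeller subunit, at -0.64; NUP43 did not pass without GNE987 replicate 1 (adjusted p = 0.077) or 2 (0.0976). NUP133, which sits at the stem's tip, had 81.9 and 64.3 CPM with GNE987 and 57.6 and 59.4 CPM without (0.32 ± 0.15, adjusted p = 0.102), and NUP37 was at -0.27 ± 0.12 (adjusted p = 0.0797). Without untreated replicate 1 and 2, NUP133 was at 0.3 and 0.398 and NUP37 at -0.244 and -0.25. Without GNE987 replicate 1 and 2, NUP133 was at 0.135 and 0.484, and the estimate of NUP37 stayed negative in both fits. Each of these fits leaves 1 library in a group, so it cannot decide whether either gene changed. The sign of NUP133 turned with library size alone (-0.049).

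All 5 inner ring genes fell. NUP205, a large scaffold nucleoporin, had the largest fall of the 45 genes: 3.81 and 2.75 CPM with GNE987 and 96.0 and 77.7 CPM without, from 58 and 38 counts against 2139 and 1574 counts. Its log2 fold change was -4.72 ± 0.22 (adjusted p = 0.000292). NUP188, its paralogue in the same ring, was at 37.2 and 34.0 CPM against 100.2 and 89.1 CPM, a smaller fall of -1.41 ± 0.13 (adjusted p = 0.000662). NUP35, which touches the membrane, had 4.99 and 3.91 CPM with GNE987 and 17.7 and 16.6 CPM without (-1.94 ± 0.20, adjusted p = 0.00105). NUP155, also at the membrane side, and NUP93, which anchors the channel nucleoporins, were at -1.92 and -0.99. No inner ring gene lost its call in any of the settings tried.

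The central channel and the mobile FG nucleoporins were divided. NUP58 and NUP98 rose, NUP62 and NUP54 did not pass, and NUP62CL, a short relative of NUP62, fell. NUP58, a subunit of the channel complex with NUP62 and NUP54, had 262.2 and 253.9 CPM with GNE987 and 98.3 and 121.0 CPM without (1.24 ± 0.15, adjusted p = 0.00168). NUP98, whose precursor is cleaved into NUP98 and the outer ring subunit NUP96, had 246.5 and 213.1 CPM with GNE987 and 104.8 and 125.0 CPM without (1.00 ± 0.15, adjusted p = 0.00333). NUP62, the core of the channel complex, had 215.7 and 253.7 CPM with GNE987 and 225.5 and 230.7 CPM without; the groups overlapped (0.04 ± 0.14, adjusted p = 0.798). NUP54 was at 22.2 and 21.1 CPM against 24.3 and 22.2 CPM (-0.10 ± 0.13, adjusted p = 0.494). The channel partners NUP58, NUP62 and NUP54 thus had estimates of 1.24, 0.04 and -0.10; the differences between them were not tested. NUP62CL rested on few reads, 11 and 20 counts with GNE987 and 64 and 46 without, and its call (-1.25 ± 0.45, adjusted p = 0.0497) was lost without GNE987 replicate 1 (0.23) or 2 (0.0649) and with DESeq2 (0.148).

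The NUP genes of the cytoplasmic face, NUP88 and NUP214, and of the nuclear basket, NUP50 and NUP153, fell. NUP88, which holds the export platform on the cytoplasmic side, had 5.19 and 4.57 CPM with GNE987 and 60.4 and 51.0 CPM without, the next largest fall (-3.51 ± 0.17, adjusted p = 0.000292). Its partner NUP214, an FG nucleoporin that binds exportin 1, had 13.1 and 14.9 CPM with GNE987 and 31.1 and 24.3 CPM without (-0.99 ± 0.18, adjusted p = 0.00517, and 0.0601 without GNE987 replicate 1). In the basket NUP50, which helps release importin alpha from its cargo, had 75.9 and 70.2 CPM with GNE987 and 164.9 and 144.3 CPM without (-1.08 ± 0.13, adjusted p = 0.00165). NUP153, which anchors the basket, had 56.4 and 51.2 CPM with GNE987 and 85.9 and 77.0 CPM without (-0.60 ± 0.12, adjusted p = 0.00828). NUP153 did not pass without GNE987 replicate 1 (adjusted p = 0.068) or 2 (0.106).

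The membrane nucleoporin NUP210 and its paralogue NUP210L passed in opposite directions. NUP210, or gp210, had 176.9 and 173.9 CPM with GNE987 and 313.5 and 282.2 CPM without (-0.76 ± 0.13, adjusted p = 0.00417). NUP210L, known for its expression in testis, had 148 and 114 counts with GNE987, 3 counts in untreated replicate 1 and 27 in untreated replicate 2, or 9.72 and 8.26 CPM against 0.135 and 1.33 CPM. Its log2 fold change of 3.63 ± 0.79 (adjusted p = 0.00984) was 2.75 without untreated replicate 1 and 6.04 without untreated replicate 2. Neither gene passed without GNE987 replicate 1 (adjusted p = 0.0642 for NUP210 and 0.0786 for NUP210L) or 2 (0.0676 for each).

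**Figure D2:**
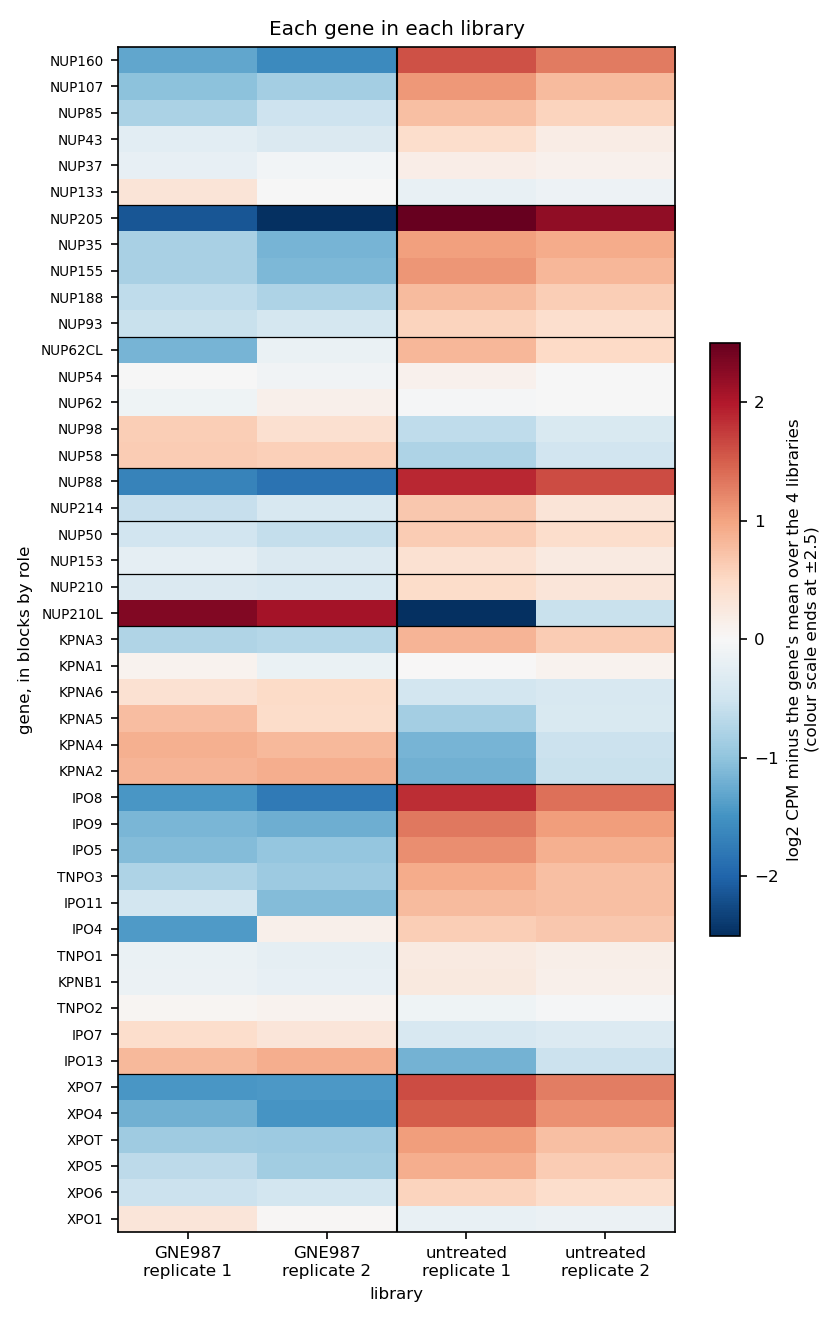
Log2 CPM of each gene in each library, centred on the gene's mean over the 4 libraries, with GNE987 libraries at the left and untreated ones at the right. Among the genes that fell, NUP205 and NUP88 change colour most sharply between the groups. For NUP210L, which rose, untreated replicate 2 (1.33 CPM) is paler than untreated replicate 1 (0.135 CPM).

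Promoter sequence was available from RefSeq (GRCh38.p14) for 40 of the 45 genes. The 250 bases before the start are shown for NUP205 and NUP210L. They had the largest fall and the largest rise among the promoters that lie outside their own gene in GENCODE 29. NUP188, the paralogue of NUP205, was chosen because its window holds the most matches to CACGTG among such promoters of genes that passed. Capitals mark CACGTG, the E-box that MYC with MAX can bind, which reads the same on both strands. All 3 run 5′ to 3′ on the gene's strand, for NUP205 at chr7:135557667-135557916 (plus), for NUP210L at chr1:154155117-154155366 (minus) and for NUP188 at chr9:128947449-128947698 (plus).
NUP205: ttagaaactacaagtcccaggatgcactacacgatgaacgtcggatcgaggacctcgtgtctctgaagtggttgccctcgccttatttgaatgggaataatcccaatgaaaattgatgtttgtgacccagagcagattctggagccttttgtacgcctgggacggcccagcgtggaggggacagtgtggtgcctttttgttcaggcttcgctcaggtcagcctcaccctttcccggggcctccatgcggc
NUP210L: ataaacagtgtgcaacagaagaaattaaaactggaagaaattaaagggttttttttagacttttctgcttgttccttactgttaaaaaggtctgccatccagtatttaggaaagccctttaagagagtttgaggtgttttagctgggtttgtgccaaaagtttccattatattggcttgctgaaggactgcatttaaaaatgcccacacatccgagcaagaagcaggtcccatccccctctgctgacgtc
NUP188: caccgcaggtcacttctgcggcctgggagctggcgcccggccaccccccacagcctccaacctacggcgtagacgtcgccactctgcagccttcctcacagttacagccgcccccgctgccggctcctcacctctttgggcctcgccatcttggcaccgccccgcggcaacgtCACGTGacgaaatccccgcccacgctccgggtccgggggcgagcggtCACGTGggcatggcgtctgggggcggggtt

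The NUP188 window, which was chosen for its matches, holds 2 and the windows of NUP205 and NUP210L hold 0. Over the 40 genes 6 windows held CACGTG, or 15%, beside 8.4% of 12407 protein-coding genes with a sequence of the same length. These were NUP188, KPNA3 and NUP50, which fell, IPO7, which rose, and IPO4 and TNPO2, which did not pass. The GC content was 54.0% for NUP205, 40.4% for NUP210L and 71.2% for NUP188. A match describes the letters and says nothing of binding in these cells.

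Importin alpha genes rose for the most part. Of the 6 measured, 4 rose and 1 fell. KPNA2, an importin alpha known for high levels in dividing cells, had 1101 and 1138 CPM with GNE987 and 264.2 and 414.9 CPM without, the untreated pair being far apart (1.72 ± 0.24, adjusted p = 0.00253). KPNA4 had 171.0 and 162.8 CPM with GNE987 and 41.7 and 63.5 CPM without (1.67 ± 0.22, adjusted p = 0.00213). KPNA3, its closest relative, fell, with 13.0 and 13.3 CPM with GNE987 and 39.3 and 33.7 CPM without (-1.48 ± 0.14, adjusted p = 0.0008). The closely related KPNA5, KPNA6 and KPNA1 were at 1.23, 0.87 and -0.08; KPNA1 did not pass (adjusted p = 0.638), and KPNA5 passed except without GNE987 replicate 1 (adjusted p = 0.0545).

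The direction of KPNA1 turned with RLE (0.016) and upper-quartile scaling (0.12). As a share of the summed FPKM of the 6 importin alpha genes, KPNA2 made up 89.9% and 90.4% with GNE987 and 77.2% and 83.2% without. KPNA3 made up 0.7% in each GNE987 library and 8.1% and 4.7% in the untreated ones. CSE1L, the exportin that returns importin alpha to the cytoplasm and lies outside the name rule, fell with 40.6 against 165.7 CPM on average (-2.03 ± 0.16, adjusted p = 0.000479).

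Importin beta and its import relatives mostly fell, with 7 of 11 lower and 2 higher. IPO8, which carries SMAD and Argonaute proteins, had 2.43 and 1.96 CPM with GNE987 and 23.9 and 17.3 CPM without (-3.23 ± 0.26, adjusted p = 0.000501). IPO9, a carrier of histones H2A and H2B, had 14.2 and 13.3 CPM with GNE987 and 78.1 and 64.5 CPM without (-2.37 ± 0.15, adjusted p = 0.000317). IPO5, a carrier of ribosomal proteins, TNPO3, the carrier of SR splicing factors, and IPO11 were at -2.05, -1.67 and -1.51.

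IPO13 and IPO7 rose. IPO13, which works in both directions and brings in the exon junction proteins MAGOH and Y14, had 164.0 and 174.6 CPM with GNE987 and 41.1 and 64.7 CPM without (1.68 ± 0.23, adjusted p = 0.0025). IPO7, also a carrier of ribosomal proteins and a near relative of IPO8, had 141.8 and 130.4 CPM with GNE987 and 79.5 and 83.6 CPM without (0.74 ± 0.12, adjusted p = 0.00367, and 0.06 without GNE987 replicate 1). The paralogues IPO7 and IPO8 thus passed the test in opposite directions.

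KPNB1, importin beta itself, had 237.1 and 226.9 CPM with GNE987 and 309.3 and 285.8 CPM without, a small difference (-0.36 ± 0.12, adjusted p = 0.0448). TNPO1, the carrier of hnRNP proteins, was at -0.39 ± 0.11 (adjusted p = 0.0231) and its paralogue TNPO2 at 0.13 ± 0.12 (adjusted p = 0.346). TNPO2 was at 0.087 without untreated replicate 1 and 0.23 without untreated replicate 2, and its sign turned with library size alone (-0.24). The calls of KPNB1 and TNPO1 were lost without GNE987 replicate 1 (adjusted p = 0.211 and 0.155), without GNE987 replicate 2 (0.274 and 0.192), with RLE scaling (0.104 and 0.0542) and with DESeq2 (0.0567 and 0.0668). IPO4 was listed with 3 and 8 counts with GNE987 and 18 and 17 without (-1.09 ± 0.62, adjusted p = 0.16), a value of -0.50 without GNE987 replicate 1 and -2.03 without GNE987 replicate 2. Of its exonic bases, 70.1% lie in exons of other genes in GENCODE 29, most of them those of the readthrough gene AL136295.4 on the same strand, and what that overlap does to the counts listed for IPO4 was not tested.

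Among the exportins 5 of 6 fell. XPO7 had 13.1 and 13.3 CPM with GNE987 and 111.8 and 88.1 CPM without (-2.92 ± 0.16, adjusted p = 0.000295). XPO4, which carries eIF5A, had 4.20 and 3.48 CPM with GNE987 and 27.7 and 21.4 CPM without (-2.67 ± 0.22, adjusted p = 0.000507). XPO5, the exporter of microRNA precursors, had 31.7 and 27.1 CPM with GNE987 and 92.9 and 77.0 CPM without (-1.53 ± 0.15, adjusted p = 0.000927). XPOT, which exports tRNA, and XPO6, which exports actin, were at -1.81 and -1.004.

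XPO1, the main exporter of proteins with a leucine-rich signal, had 222.0 and 184.7 CPM with GNE987 and 158.1 and 163.5 CPM without (0.34 ± 0.14, adjusted p = 0.0755). XPO1 passed as higher with RLE scaling (adjusted p = 0.0373) and with DESeq2 (0.0147), while its sign turned with library size alone (-0.031). Its estimate was 0.314 and 0.418 without untreated replicate 1 and 2, and 0.2 and 0.465 without GNE987 replicate 1 and 2. XPO1 made up 44.9% and 40.5% of the summed FPKM of the 6 exportins with GNE987 and 14.8% and 17.6% without.

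**Figure D3:**
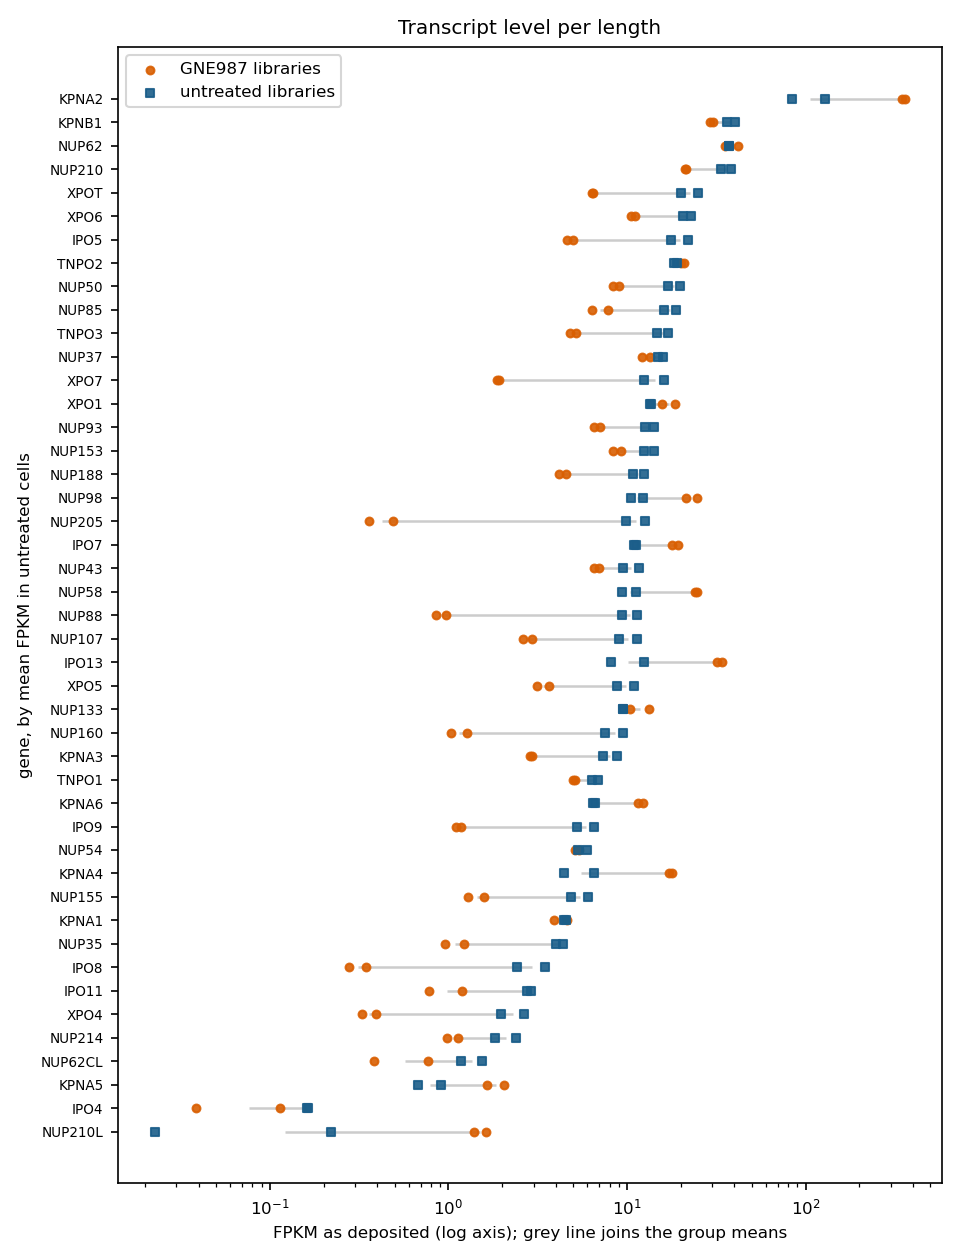
FPKM of each gene in the GNE987 libraries (circles) and untreated libraries (squares) on a log axis, ordered by the untreated mean. KPNA2 is the most abundant in both groups, at 352 FPKM with GNE987 and 106 FPKM without, and NUP205 is at 0.425 FPKM with GNE987 against 11.3 FPKM without.

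Levels between genes can be compared per length, in the deposited FPKM. KPNA2 averaged 352 ± 9.17 FPKM with GNE987 and 106 ± 31.4 FPKM in untreated cells (SD, n = 2 each), the highest of the 45 in both. In untreated cells it was followed by KPNB1 (38.3 ± 2.9), NUP62 (37.4 ± 0.149) and NUP210 (36.0 ± 3.39), neighbours that do not differ beyond their spread. With GNE987 the next were NUP62 (38.5 ± 4.52), IPO13 (32.9 ± 1.54) and KPNB1 (29.8 ± 0.845). IPO13 stood at rank 3 with GNE987 and at rank 24 without, where NUP107, next in the order, did not differ from it beyond their spread. NUP205 was at 0.425 ± 0.0955 FPKM with GNE987 and 11.3 ± 1.9 FPKM without, at rank 42 against rank 19.

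Summed over roles, the 5 inner ring genes had 14.1 ± 0.42 FPKM with GNE987 and 46.0 ± 5.37 FPKM without (SD, n = 2 each), and the 2 cytoplasmic ones had 2.0 FPKM in each GNE987 library against 13.8 and 11.2 FPKM. The 5 channel and mobile FG genes had 91.7 ± 1.84 FPKM with GNE987 and 66.2 ± 1.63 FPKM without. The 6 exportins had 41.6 and 38.5 FPKM with GNE987 and 91.4 and 77.4 FPKM without, and the 6 importin alpha genes 390.6 ± 8.34 FPKM with GNE987 and 131.8 ± 32.17 FPKM without. The 11 genes of importin beta and its import relatives had 119.2 ± 0.28 FPKM with GNE987 and 132.6 ± 6.08 FPKM without. These sums are dominated by their most abundant genes and were not tested.

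**Figure D4:**
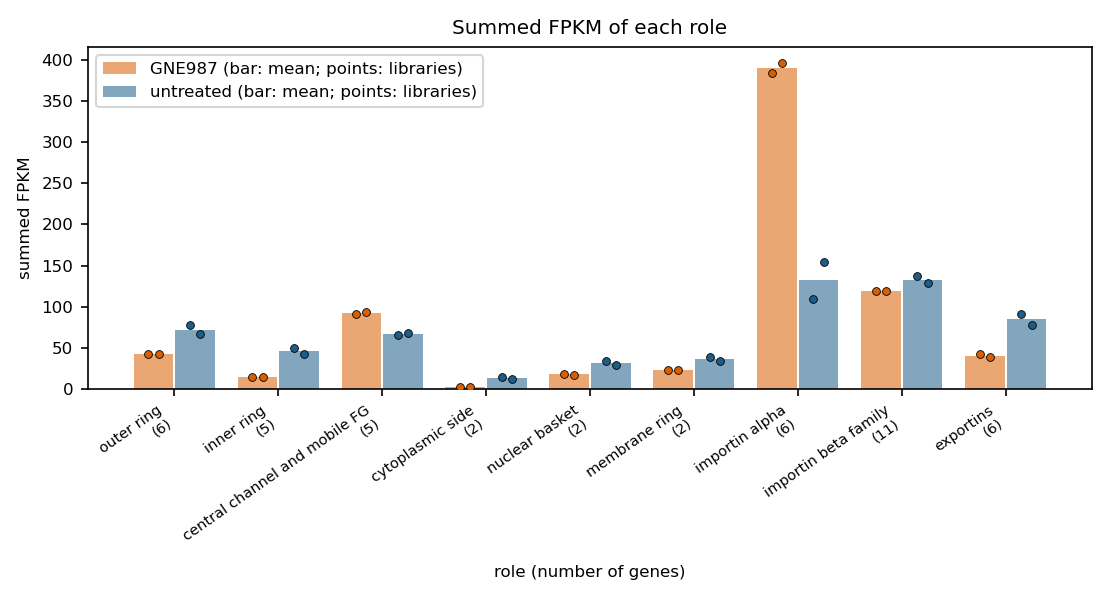
Summed FPKM of the genes of each role; bars are means of 2 libraries and points are libraries, with GNE987 at the left of each pair. Importin alpha stands at 384.7 and 396.5 with GNE987 against 109.1 and 154.6 without, and the inner ring at 14.4 and 13.8 against 49.8 and 42.2.

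The name rule did not use the length of the loci. The 28 genes that fell had a median span of 76.8 kb, the 9 that rose 63.5 kb and the 8 that did not pass 40.4 kb, beside 34.8 kb, 26.8 kb and 30.9 kb for all protein-coding genes that fell, rose or did not pass. Single genes were far shorter, such as IPO4 (8.7 kb), KPNA2 (11.3 kb) and IPO13 (21.1 kb). Median untreated levels were 10.5 FPKM for those that fell and 10.2 FPKM for those that rose. No exonic base was shared with another gene for 23 of the 45, and 5 shared at least 10%, in libraries that do not keep the strand. These were IPO4, IPO11, NUP62, NUP88 and KPNA1. Rows named as pseudogenes of the 45 had at most 93 counts in a library (IPO5P1, of IPO5). On GRCh38, NUP205 lies on chromosome 7 from 135557919 to 135648757, KPNA2 on chromosome 17 from 68035519 to 68046842 and XPO1 on chromosome 2 from 61477849 to 61538626. NUP88 shares 9.8% of its exonic bases with RPAIN on the opposite strand, which had 756 and 697 counts with GNE987 and 1114 and 1055 without. NUP62 shares 10.4% with ATF5, which had 2240 and 2250 counts with GNE987 and 750 and 1242 without; what reads of ATF5 add to NUP62 was not tested.

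Pore components outside the name rule were divided, in shares near those of all genes tested. Of 11 tested, 5 rose (45.5%) and 4 fell (36.4%), with a median of 0.09, beside 34.4% and 37.2% of all genes. The 22 NUP genes had 3 rises and 15 falls. The shares of all genes also stand beside the lists that follow. With library size alone 3 of the 11 rose and 4 fell. POM121 and POM121C, counted here, are near-identical copies, so the counts of each are uncertain. AHCTF1, or ELYS, which seeds pores on chromatin after mitosis, had 131.1 CPM on average with GNE987 and 44.5 CPM without (1.56 ± 0.18, adjusted p = 0.00145), and the export factor GLE1 rose as well (0.99 ± 0.15, adjusted p = 0.00311). RANBP2, the large nucleoporin of the cytoplasmic filaments, rose by 0.69 ± 0.13 on the log2 scale (adjusted p = 0.00548), and did not pass with library size alone (0.32, adjusted p = 0.104) or without GNE987 replicate 1 (0.0711). SEH1L, an outer ring subunit, and NDC1, a membrane nucleoporin, fell (-1.35 ± 0.14 and -1.75 ± 0.19, adjusted p = 0.00107 and 0.00118). TPR, the basket filament, was at 0.09 ± 0.12 (adjusted p = 0.514).

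Of 10 tested genes of the Ran cycle and other transport factors 3 rose and 5 fell (median -0.30), 1 and 3 without either GNE987 library. RAN itself averaged 1325 CPM with GNE987 and 865.4 CPM without (0.61 ± 0.13, adjusted p = 0.00952), and did not pass with library size alone (0.24, adjusted p = 0.102) or without GNE987 replicate 1 (0.0832) or 2 (0.0838). RANGAP1, which makes Ran hydrolyse GTP, and NUTF2, which carries Ran back into the nucleus, rose by 1.09 ± 0.18 and 0.94 ± 0.16 on the log2 scale (adjusted p = 0.00393 and 0.00479), the call of NUTF2 being lost without GNE987 replicate 1 (0.0507) or 2 (0.057). RCC1, which loads Ran with GTP in the nucleus, was lower (-0.48 ± 0.14, adjusted p = 0.024; 0.117 without GNE987 replicate 1 and 0.211 without 2), as was SNUPN, the adaptor that imports spliceosomal particles (-1.99 ± 0.15, adjusted p = 0.00044).

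Of 25 tested mRNA export factors 19 fell and 3 rose (median -0.99). This list also counts PHAX, which is the adaptor for export of small nuclear RNA. PHAX averaged 1.89 CPM with GNE987 and 28.7 CPM without (-3.92 ± 0.21, adjusted p = 0.000295). ALYREF, which hands mRNA to the export receptor, averaged 46.7 CPM with GNE987 and 296.2 CPM without (-2.67 ± 0.14, adjusted p = 0.000295). NXF1, the receptor itself, rose, with 782.7 and 781.8 CPM with GNE987 and 84.1 and 215.6 CPM without, the untreated pair being far apart (2.38 ± 0.44, adjusted p = 0.00598; 3.27 without untreated replicate 2 and 1.86 without untreated replicate 1). Its partner NXT1 was at -1.54 ± 0.12 (adjusted p = 0.000434). The other rises were those of the helicase DDX39B (1.35 ± 0.22, adjusted p = 0.00401) and of ENY2 (0.82 ± 0.13, adjusted p = 0.00405, and 0.0587 without GNE987 replicate 1). Of 16 genes of the nuclear lamina and envelope 6 rose and 8 fell (median -0.31), or 3 and 5 without GNE987 replicate 1; SUN1 and EMD rose by 0.81 ± 0.13 and 1.09 ± 0.18, and TOR1A and LEMD3 were at -0.98 ± 0.12 and -1.37 ± 0.18 (adjusted p = 0.00408, 0.00411, 0.00186 and 0.00206). SUN1 did not pass without GNE987 replicate 1 (adjusted p = 0.0584).

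**Figure D5:**
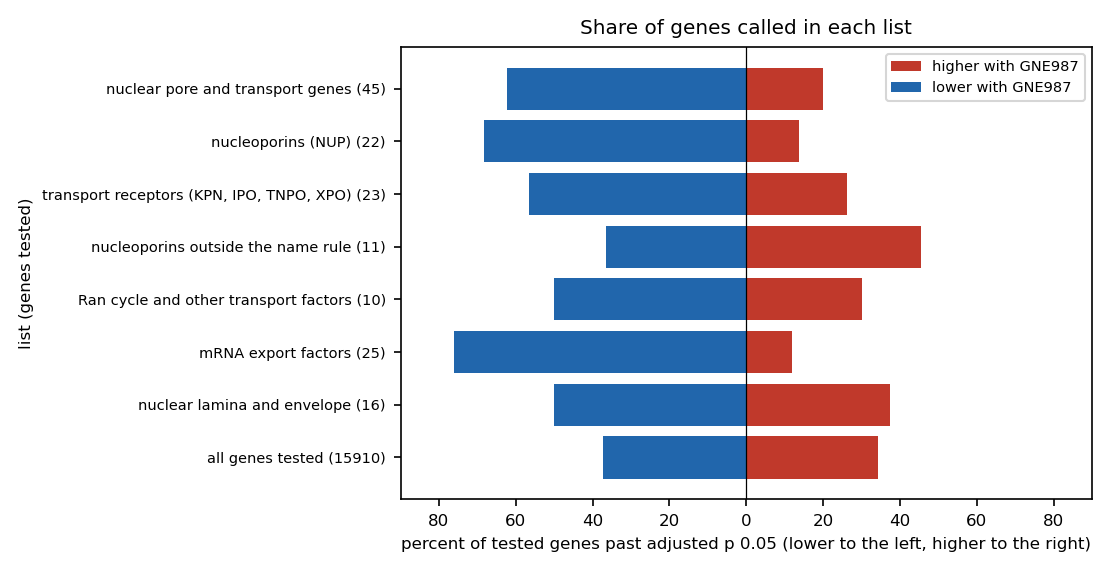
Percent of the tested genes of each list that passed as lower (left) or higher (right) with GNE987. The list of mRNA export factors, with PHAX counted in it (76% lower, 12% higher), and the nucleoporins under the name rule (68.2% lower, 13.6% higher) lean farthest to the left. Beside them stand 37.2% lower and 34.4% higher for all genes tested.

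By the adjusted p of the authors' deposited table, under 0.05, 36 of the 45 genes were called, 27 lower and 9 higher with GNE987. Of all 26733 genes 37.3% were called there, but these include genes with too few counts for the filter that all 45 passed. In the edgeR fits used here 71.6% of the 15910 filtered genes were called, and 42.5% of all 26733 without the filter. The shares of all genes by direction in the deposited table were not counted. That table was made from the same libraries.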

How the data were processed

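The TruSeq RNA kit used, per the labels' protocols, does not keep the strand. HISAT2 2.2.0 and hg38 are named, per the submitters' processing notes, while the counter, its annotation and its strand setting were not given in the sources used here. One table was deposited, with raw counts, a normalized signal (the deposited count over a size factor per library; 100.0% of values gave back the count within 0.01), the authors' FPKM, and the authors' deposited log2 fold change with p-value and adjusted p-value.

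The raw counts of 15910 genes kept by filterByExpr (minimum count 10, minimum total 15) were scaled by TMM and tested with edgeR 4.0.16 (quasi-likelihood F test, R 4.3.3), GNE987 against untreated, with 2 residual degrees of freedom and Benjamini-Hochberg adjustment over all genes tested. This test gave every adjusted p-value printed without a tool's name. An SE is the log2 fold change over the square root of F. CPM are TMM-scaled, and 3 counts equal 0.158 to 0.187 CPM before scaling. Reads carry no molecular identifiers. Coordinates and overlaps are from GENCODE 29 (GRCh38), which held all 26733 gene identifiers. The fit was tested on simulated data and missed many changes there. Far fewer genes changed in that simulation than were called here, so it does not give the share missed in these libraries. With 2 libraries a group, a gene that did not pass is not shown to be unchanged.

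Alternatives were RLE, upper-quartile and library-size scaling, no filter, a filter of 10 CPM in 2 libraries, DESeq2 1.42.0, a block for the replicate number, robust estimation, and fits that leave out each library in turn. The members and lists were chosen with earlier results of these data known. Each role's 2 largest rises and 2 largest falls past the threshold, and NUP98, NUP62, KPNB1, KPNA2, XPO1 and XPO5, are given in every library; NUP188, NUP133, NUP54, NUP37 and NXT1 were added after their values were seen. In each other list the 2 called genes of smallest p in each direction are named, with CSE1L, RAN, RCC1, RANBP2, TPR and NXF1. Genes of smallest p are not always those of largest change, and the estimates of the lamina and envelope list ran from -1.91 to 2.19. The protein features planned (FG repeats, importin alpha identity) were not analysed here.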

Additional observations from a re-analysis of the deposited data

How the results depend on the processing

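With 2 libraries a group, fewer of all genes were called when a GNE987 library was left out, and more when an untreated one was. Leaving out a GNE987 library leaves only the spread of the more variable untreated pair, and leaving out an untreated one only that of the GNE987 pair. The part of that spread, and of the lost residual degree of freedom, was not tested. Over the 4 fits that each leave out a library, the nuclear pore and transport genes had 21 to 29 falls and 6 to 12 rises, with a median log2 fold change from -1.04 to -0.83, and 6070 to 12921 of all genes changed. Rises and falls were 3 to 5 and 3 to 4 for other nucleoporins, 1 to 3 and 3 to 5 for the Ran list, 2 to 3 and 14 to 19 for mRNA export, and 3 to 7 and 5 to 8 for the lamina. Without GNE987 replicate 1 a call was lost by 10 of the 45 genes and without GNE987 replicate 2 by 7, named above with their values. The median was -0.79 with upper-quartile scaling, -1.37 with library size alone and -0.82 with 10 CPM in 2 libraries. The median of all genes tested was 0.16 with upper-quartile scaling and -0.41 with library size alone, against -0.03 in the main fit. The 10 CPM setting tests fewer genes (42 of the 45). Single genes moved there too, as NUP93 and NUP214, each at -0.99 in the main fit, were each at -0.82. The part of the fewer genes was not tested. Library size alone gave 3 rises among other nucleoporins, and upper-quartile scaling and the 10 CPM filter gave 3 falls each in the Ran list. Signs turned only in genes that had not passed: with library size alone NUP133 (-0.049), NUP62 (-0.33), TNPO2 (-0.24), XPO1 (-0.031) and TPR (-0.28); without the filter NUP62 (-0.10), TNPO2 (-0.016) and TPR (-0.052); with upper-quartile scaling NUP54 (0.094) and KPNA1 (0.12); with 10 CPM NUP54 (0.068) and KPNA1 (0.095); with RLE and DESeq2 KPNA1 (0.016 and 0.017); and over the fits that each leave out a library, NUP62 from -0.081 to 0.154 and KPNA1 from -0.211 to 0.048, turning without GNE987 replicate 2 (both) and without untreated replicate 2 (KPNA1, 0.021). With library size alone NUP37, NUP54 and KPNA1 passed as lower (adjusted p = 0.00622, 0.0417 and 0.0457), and NUP37 also passed without the filter (0.0374). With upper-quartile scaling and 10 CPM, NUP133 passed as higher (0.0223 and 0.0311), as did XPO1 (0.0171 and 0.0225), while KPNB1 (0.3 and 0.193) and TNPO1 (0.179 and 0.0906) lost their calls. NUP62CL also lost its call with RLE (0.0617) and upper-quartile scaling (0.0824). RCC1 lost its call with upper-quartile scaling (0.117) and 10 CPM (0.0791). Robust estimation changed no call of the 45.

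The labels do not say whether the replicate numbers pair the libraries. Same-numbered deviations correlated with r = -0.00595 across genes. That value cannot settle it, since the untreated pair differed far more than the GNE987 pair. With the replicate block 3 of the 45 genes, NUP62CL (adjusted p = 0.103), KPNB1 (0.0802) and TNPO1 (0.0525), lost their call, and all genes changed numbered 9801. At this depth NUP62CL, IPO4 and NUP210L are the least precise, with 20 or fewer counts in at least 1 library.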
